A study of Mus musculus with 47 samples.

Results

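The members described are 9 immediate early genes of the Egr and Klf families, Egr1, Egr2, Egr3, Klf2, Klf4, Klf5, Klf6, Klf9 and Klf10, of 12393 genes with a single-symbol probe set on the array. They are a list of names, drawn up with earlier results of these data known. Each was read from a probe set with exactly 1 gene symbol, and where a gene had several, from the one with the highest mean over all arrays. All 9 passed the filter on low signal that left 8675 genes in the tests, and their mean log2 signals lay between the 49th and the 89.8th percentile of all genes. RNA of JB6 cells, a mouse epidermal line that the labels call progenitor cells, was measured on 47 arrays. One line stably carries an shRNA against annexin A2 (AnxA2 shRNA cells), the other the control construct labelled Ps vector (vector cells), both brought in by retrovirus and selected with puromycin. Each line was left untreated (sham) and collected at 2 and 24 h, or was exposed to 10 or 100 cGy of X-rays and collected at 2, 6 and 24 h, all in growth medium with 5% serum. That gives 16 groups, 15 of them with 3 arrays and 1, the vector cells 24 h after 10 cGy, with 2. The labels do not say whether a line is 1 clone, nor whether replicates were separate cultures, so p-values measure the spread between these arrays, which may be technical. Untreated cells at 6 h are not among the samples used here, so changes through 6 h can be followed in irradiated cells alone.

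Egr proteins are zinc finger transcription factors whose genes are switched on within minutes of serum, growth factor or stress signals, largely through serum response factor (SRF) bound at CArG boxes beside ternary complex factors, and then shut off again, in part by the Nab corepressors that Egr proteins themselves induce. Klf proteins bind CACCC and GC-rich boxes. Several Klf genes respond to serum in the same early window, and Klf2 is also driven through the kinase ERK5 and MEF2 factors, as is well described in endothelium. In skin Klf4 is known for barrier formation, Klf5 for proliferation of basal cells, Klf9 for its control by glucocorticoid hormone and Klf10 for its induction by TGF-beta.

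Promoters of 300 bases (most of them before the annotated start, from RefSeq, build GRCm38.p6) were read for Egr2, Klf2, Klf4, Klf6 and Klf9. Those of the other members, Egr1 among them, were not searched. Both strands were searched for a CArG box, a MEF2 box, the Egr site GCGNGGGCG and the box CACCC. The Klf2 and Egr2 sequences are shown because Klf2 was the member with the largest difference between the lines and Egr2 the one with the largest change over time, with the MEF2 box of Klf2 (chr8:72318812-72319111, plus strand) and the CArG box of Egr2 (chr10:67537619-67537918, plus strand) in capitals.
Klf2: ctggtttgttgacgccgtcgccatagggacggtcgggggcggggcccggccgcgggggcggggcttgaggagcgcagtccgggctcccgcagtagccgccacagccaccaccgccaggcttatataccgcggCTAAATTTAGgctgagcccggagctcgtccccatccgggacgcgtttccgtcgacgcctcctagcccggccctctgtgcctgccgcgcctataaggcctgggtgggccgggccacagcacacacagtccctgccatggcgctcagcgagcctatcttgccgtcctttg
Egr2: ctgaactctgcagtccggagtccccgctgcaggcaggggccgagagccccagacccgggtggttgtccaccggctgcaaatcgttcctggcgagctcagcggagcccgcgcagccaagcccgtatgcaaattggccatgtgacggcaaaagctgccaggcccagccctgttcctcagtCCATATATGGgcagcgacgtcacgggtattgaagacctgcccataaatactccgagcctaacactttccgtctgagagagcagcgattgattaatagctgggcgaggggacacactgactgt
The Klf2 box begins at position -118 relative to the start, and 3.19% of 32851 mouse promoters of this length hold a MEF2 box. The Egr2 box begins at position -72, and 1.63% of the promoters hold a CArG box. The Egr site GCGNGGGCG, held by 5.55% of promoters, had 2 matches for Klf4 and 1 for Klf2, while CACCC was in 57.5% of all promoters. Within these windows, which leave out Egr1, a CArG box was matched only in entries of Egr2 and a MEF2 box only in that of Klf2. A match is a string of letters, not a measured binding site.

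The targeted gene was lower in every condition: Anxa2, whose protein is a calcium-dependent membrane-binding annexin, averaged 10.91 in untreated shRNA cells and 12.46 in untreated vector cells (log2 signal), 2.92-fold lower in shRNA cells (limma, adjusted p = 3.38e-23), while the labels state a loss of over 95% by other methods. Of 7 epidermal keratinocyte markers, 5 were under the low-signal limit of 4.35 in shRNA cells and 6 in vector cells. Trp63, Cdh1 and Epcam were under it in both, and Krt14 was at least 5.17-fold higher in untreated shRNA cells, with the vector arrays, all under the limit, set to it. Of 6 mesenchymal genes Vim, Col1a1, Col1a2 and Fn1 were bright, at 11.1 to 13.1 on average, and Thy1 was under the limit. Pdgfra averaged 6.98 on shRNA arrays and 9.53 on vector arrays (difference in untreated cells -2.58, limma adjusted p = 8.42e-26). In both lines 4 of 5 endothelial and 3 of 5 leukocyte markers were under the limit. The mean log2 signal over the endothelial list ran between 3.32 and 3.67 on shRNA arrays and between 3.30 and 3.59 on vector arrays.

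Replicate 3 of all 3 vector groups at 2 h (untreated, 10 and 100 cGy) stood apart from replicates 1 and 2. Egr2 read between 5.41 and 5.54 on these 3 arrays, between 9.33 and 9.78 on the other 6 vector arrays of that time, and between 5.58 and 5.85 on the vector arrays at 24 h. Klf4 was at 8.10 to 8.22 on the 3 and 8.99 to 9.17 on the 6, Klf6 at 7.50 to 7.75 against 7.99 to 8.35, and Klf9 at 7.05 to 7.46 against 8.05 to 8.32. Klf10 went the other way, with 8.998 to 9.30 against 7.60 to 8.33. So 5 of the 9 members lay outside the range of the other 6 arrays, as did 20% of the tested genes (1736 of 8675). The vector arrays at 24 h ran between 7.26 and 7.83 for Klf4, 7.11 and 7.75 for Klf6, 7.59 and 8.06 for Klf9, and 7.97 and 8.39 for Klf10. The 3 arrays thus overlapped the 24 h range for Klf6, but not for Klf4, Klf9 or Klf10. For Egr2, Klf4, Klf6 and Klf9 the 3 arrays read lower than their group mates, and for Egr1, Egr3, Klf2 and Klf5 the ranges overlapped. Results that rest on vector cells at 2 h are therefore also given without these arrays where that changes a call or moves a called value by over 1.5 times. Leaving them out also lowers the shared estimate of spread, for Egr2 by the most, so the omission bears on comparisons that do not include them. The 3 prime minus 5 prime log2 signal of Gapdh, a sign of RNA integrity, was 0.59 on the untreated array of the 3, 0.08 at 10 cGy and -0.001 at 100 cGy. High values were not confined to these arrays. In shRNA cells it was 1.06 on replicate 1 at 6 h after 10 cGy, the highest of all arrays. It was 0.49 there on replicate 2 at 2 h after 100 cGy. The part of RNA integrity in the results was not tested.

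**Figure D1:**
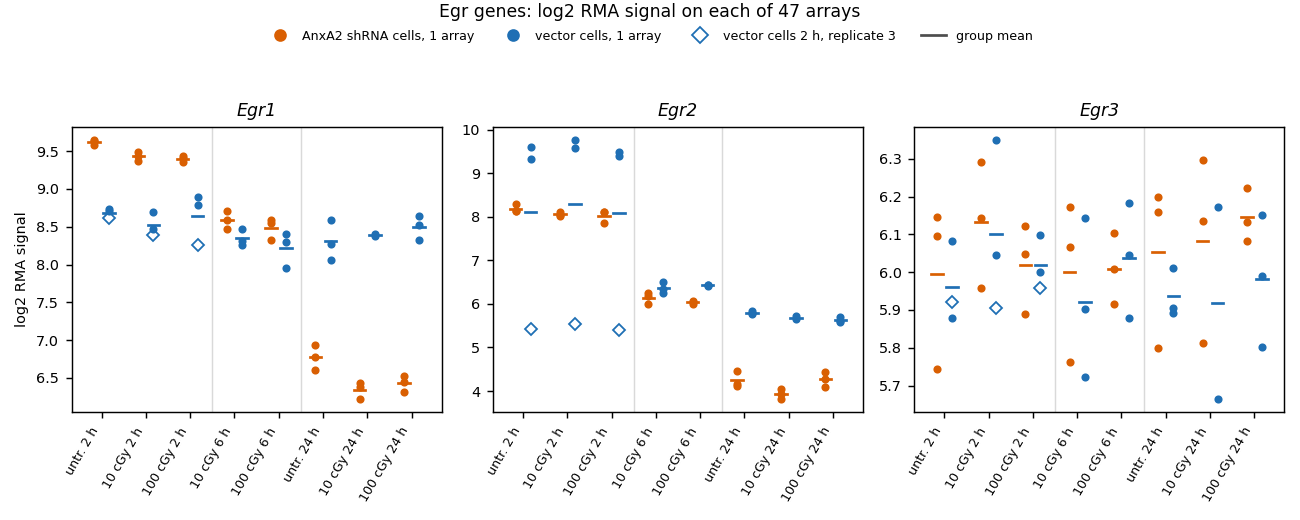
Log2 RMA signal of Egr1, Egr2 and Egr3 on every array (points) with group means (bars), for AnxA2 shRNA and vector cells by dose and time. Egr1 and Egr2 are lowest in shRNA cells at 24 h, the 3 vector arrays of replicate 3 at 2 h sit at 5.41 to 5.54 for Egr2, and Egr3 stays between 5.66 and 6.35 throughout.

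Egr1, the founding Egr factor, had a time course that differed between the lines. In untreated shRNA cells it read 6.94, 6.61 and 6.78 at 24 h and 9.58, 9.65 and 9.64 at 2 h. In untreated vector cells it read 8.27, 8.59 and 8.06 at 24 h and 8.70, 8.73 and 8.62 at 2 h. The shRNA arrays were above all vector arrays at 2 h and below all of them at 24 h, with no overlap at either time. In RNA of whole cultures, fewer cells that express a gene and less RNA per cell cannot be told apart. At 2 h Egr1 averaged 9.62 ± 0.04 in shRNA cells and 8.69 ± 0.06 in vector cells (SD, n = 3 each), 1.91-fold higher in shRNA cells (log2 difference 0.94, SE 0.13, limma adjusted p = 2.48e-07). At 24 h it averaged 6.78 ± 0.17 in shRNA cells and 8.31 ± 0.26 in vector cells, 2.89-fold lower in shRNA cells (log2 difference -1.53, SE 0.13, adjusted p = 1.95e-12). Between 24 and 2 h Egr1 fell 7.19-fold in shRNA cells (adjusted p = 6.90e-19) and 1.30-fold in vector cells (adjusted p = 0.0252). The difference between the 2 changes was -2.47 on the log2 scale (95% interval -2.83 to -2.10, adjusted p = 1.55e-12).

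Irradiated cells showed the middle of that course. In irradiated shRNA cells Egr1 had its lowest, median and highest log2 signals at 9.36, 9.42 and 9.49 at 2 h, at 8.32, 8.57 and 8.71 at 6 h, and at 6.22, 6.41 and 6.52 at 24 h (6 arrays each). In irradiated vector cells it lay at 8.26, 8.58 and 8.89 at 2 h, 7.96, 8.30 and 8.47 at 6 h, and 8.32, 8.41 and 8.64 at 24 h (6, 6 and 5 arrays). The 3 times did not overlap in shRNA cells and all overlapped their neighbours in vector cells. Egr1 fell by 0.88 on the log2 scale between 2 and 6 h in shRNA cells and by 0.30 in vector cells, a difference of -0.58 (limma adjusted p = 0.00766), and without the 3 apart arrays that difference was -0.45 (adjusted p = 0.0202). Between 6 and 24 h it fell by a further 2.15 in shRNA cells, and the change of 0.16 in vector cells did not pass the test. That difference was -2.32 (adjusted p = 9.27e-16). Set out by mean, the 8 vector groups spanned 0.47 log2 units and each overlapped its neighbour in the order, while the 8 shRNA groups spanned 3.28, led by untreated cells at 2 h (9.62), with 10 cGy at 24 h lowest (6.34), and 3 of their 7 neighbouring pairs overlapped.

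Egr2 (Krox20), a paralogue best known for its role in myelinating cells, fell with time in both lines. In untreated shRNA cells it read 4.47, 4.17 and 4.10 at 24 h and 8.29, 8.14 and 8.13 at 2 h. In untreated vector cells it read 5.85, 5.76 and 5.79 at 24 h and 9.61, 9.33 and 5.42 at 2 h. The shRNA arrays at 24 h were below all vector arrays, and at 2 h they lay between replicates 1 and 2 of the vector cells and the low replicate 3. On 7 of the 9 shRNA arrays at 24 h Egr2 was under the low-signal limit of 4.35, so differences that use them are lower bounds in size, taken with those values set to the limit. With all arrays Egr2 fell at least 13.9-fold in untreated shRNA cells (measured log2 change -3.94, SE 0.78, limma adjusted p = 3.00e-04) and 5.00-fold in vector cells (-2.32, SE 0.78, adjusted p = 0.0249). Without the 3 arrays the vector change was 12.8-fold (-3.67, SE 0.11, adjusted p = 1.11e-24). The measured shRNA minus vector difference of the 2 falls did not pass with all arrays. Without the 3 it was -0.27 and did not pass either (limma adjusted p = 0.346). Since the shRNA value at 24 h is a bound, the test does not settle which fall was larger.

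The difference in Egr2 between the lines turned on the same arrays. At 2 h in untreated cells it was 0.07 with all arrays (adjusted p = 0.962) and -1.29 without the 3 (SE 0.11, limma adjusted p = 5.67e-12). At 24 h Egr2 was at least 2.66-fold lower in shRNA cells (measured log2 difference -1.55 in both fits), with an adjusted p of 0.116 with all arrays and 1.23e-15 without the 3. The values at 24 h come from arrays that were never left out, so there only the estimate of spread changed. In irradiated shRNA cells Egr2 had medians of 8.08, 6.06 and 4.07 at 2, 6 and 24 h, and in irradiated vector cells of 9.44, 6.42 and 5.66, the first of which includes 2 of the apart arrays. Between 2 and 6 h its log2 change was -1.95 in shRNA cells and -1.802 in vector cells with all arrays, and -3.17 in vector cells without the 3. The shRNA minus vector difference of these changes was -0.15 with all arrays (adjusted p = 0.955) and 1.21 without the 3 (adjusted p = 3.24e-10). Between 6 and 24 h it fell at least 3.32-fold in irradiated shRNA cells. The measured shRNA minus vector difference for that step was -1.26 in both fits, with an adjusted p of 0.383 with all arrays and 1.00e-11 without the 3. A second, dimmer Egr2 probe set also fell with time, with log2 changes of -3.51 in untreated shRNA cells and -2.66 in untreated vector cells. In the order of means the neighbouring groups of Egr2 overlapped in 3 of 7 pairs in shRNA cells and in 5 of 7 in vector cells.

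Egr3, the third Egr factor, stayed near its mean of 6.02 everywhere. It ran between 5.75 and 6.30 on the 24 shRNA arrays and between 5.66 and 6.35 on the 23 vector arrays, and all 8 groups of each line overlapped their neighbours in the order of means. The line difference in untreated cells was 0.07 (95% interval -0.13 to 0.28), and no comparison of Egr3 passed the test.

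**Figure D2:**
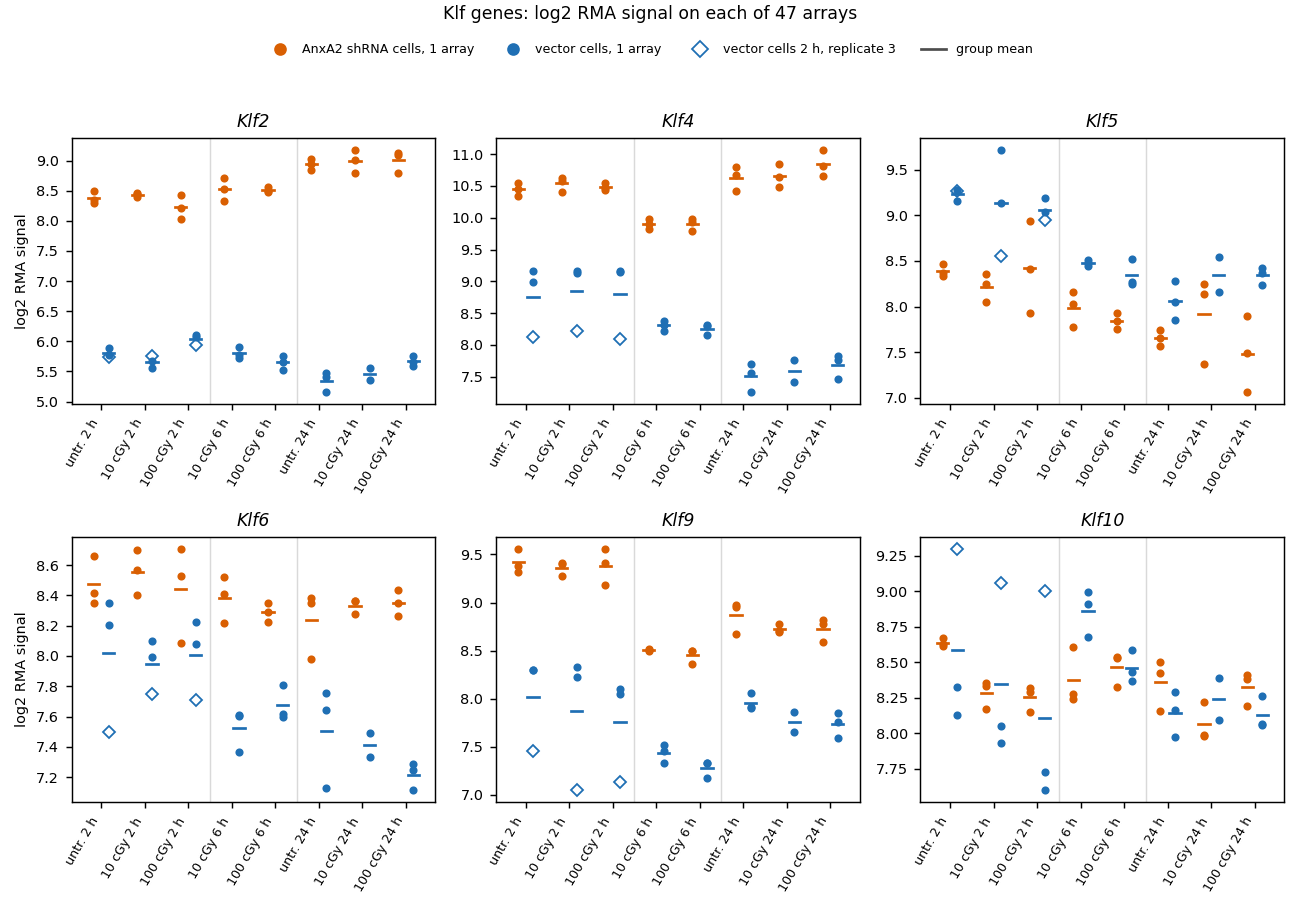
Log2 RMA signal of the 6 Klf members on every array (points) with group means (bars), by line, dose and time. Klf2 and Klf4 in shRNA cells lie above every vector array, Klf9 and Klf6 in shRNA cells lie above the vector cells of the same dose and time on average, and Klf5 lies below.

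Klf2, known for keeping endothelium and naive T cells quiescent, was the member that differed most between the lines. In untreated shRNA cells it read 9.02, 8.94 and 8.85 at 24 h and 8.34, 8.49 and 8.29 at 2 h. In untreated vector cells it read 5.41, 5.48 and 5.16 at 24 h and 5.77, 5.89 and 5.75 at 2 h. The lowest of all 24 shRNA arrays (8.02) was above the highest of all 23 vector arrays (6.11). Averaged over both times Klf2 was 8.44-fold higher in shRNA cells (log2 difference 3.08, SE 0.08, limma adjusted p = 4.11e-29), by 12.0-fold at 24 h and 5.94-fold at 2 h. With time it rose by 0.56 on the log2 scale in shRNA cells (adjusted p = 1.67e-04) and fell by 0.45 in vector cells (adjusted p = 0.0015), a difference of 1.01 (95% interval 0.71 to 1.32, adjusted p = 1.47e-05). Irradiated shRNA cells had medians of 8.41, 8.51 and 9.05 at 2, 6 and 24 h, and irradiated vector cells of 5.84, 5.74 and 5.60. The rise in irradiated shRNA cells between 6 and 24 h was 0.48 (adjusted p = 2.77e-06), and 0.64 larger than the change in vector cells (adjusted p = 7.03e-05).

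Klf4, a pluripotency and epidermal barrier factor, followed the same direction between the lines. In untreated shRNA cells it read 10.42, 10.67 and 10.79 at 24 h and 10.45, 10.34 and 10.55 at 2 h. In untreated vector cells it read 7.26, 7.70 and 7.56 at 24 h and 8.99, 9.17 and 8.12 at 2 h. Every shRNA array (lowest 9.79) was above every vector array (highest 9.17). Klf4 was 5.30-fold higher in untreated shRNA cells over both times (log2 difference 2.41, SE 0.15, limma adjusted p = 6.03e-16) and 4.74-fold without the 3 arrays. With time it fell by 1.25 in vector cells (adjusted p = 3.69e-05), and its change of 0.18 in shRNA cells did not pass the test. The difference between these changes was 1.43 (adjusted p = 0.003), or 1.75 without the 3 arrays (adjusted p = 3.93e-09).

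Irradiated shRNA cells showed a dip of Klf4 at 6 h, with medians of 10.51, 9.91 and 10.73 at 2, 6 and 24 h, whereas medians in irradiated vector cells were 9.14, 8.31 and 7.76. In shRNA cells it fell by 0.61 between 2 and 6 h (adjusted p = 0.00359) and rose by 0.85 between 6 and 24 h (adjusted p = 2.98e-05), and the 6 h arrays lay below all arrays of the other 2 times. In vector cells it fell in both steps, by 0.54 (0.87 without the 3 arrays) and by 0.65. The step after 6 h differed between the lines by 1.495 (limma adjusted p = 9.09e-06). In the order of means the neighbouring groups of Klf4 overlapped in 6 of 7 pairs in each line, and those of Klf2 in 5 of 7 pairs in shRNA cells and 6 of 7 in vector cells. A second Klf4 probe set gave a line difference of 2.47, against 2.41 for the brighter one.

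Klf9, a hormone-responsive repressor of proliferation, was higher in shRNA cells. In untreated shRNA cells it read 8.98, 8.67 and 8.95 at 24 h and 9.56, 9.38 and 9.32 at 2 h. In untreated vector cells it read 7.90, 8.06 and 7.91 at 24 h and 8.29, 8.30 and 7.46 at 2 h. The untreated shRNA arrays were all above the untreated vector arrays. Over both times Klf9 was 2.23-fold higher in shRNA cells (log2 difference 1.16, SE 0.15, limma adjusted p = 4.23e-08). Of its 7 probe sets 5 were higher in untreated shRNA cells, by 0.67 to 1.22, and the other 2 gave 0.16 and 0.08, neither of which passed. In irradiated cells its medians were 9.40, 8.50 and 8.74 in shRNA cells at 2, 6 and 24 h and 8.08, 7.33 and 7.76 in vector cells, lowest at 6 h in both lines. The fall between 2 and 6 h was 0.89 in shRNA cells (adjusted p = 3.22e-05) and 0.46 in vector cells (adjusted p = 0.0335), or 0.82 in vector cells without the 3 arrays.

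Klf6, a ubiquitous factor known as a growth suppressor, was 1.51-fold higher in untreated shRNA cells over both times (log2 difference 0.60, SE 0.12, limma adjusted p = 5.72e-05). It read 8.35, 8.39 and 7.98 in shRNA cells and 7.64, 7.13 and 7.75 in vector cells at 24 h. At 2 h it read 8.35, 8.42 and 8.66 in shRNA cells and 8.21, 8.35 and 7.50 in vector cells. The lines were fully apart at 24 h (log2 difference 0.73, adjusted p = 4.80e-04), while at 2 h replicates 1 and 2 of the vector cells came close to the shRNA cells. There the difference was 0.46 with all arrays (adjusted p = 0.0302) and 0.20 without the 3 (adjusted p = 0.340). With time it fell in untreated vector cells, by 0.51 with all arrays and by 0.77 without the 3. All 3 Klf6 probe sets gave a positive line difference in untreated cells, between 0.60 and 0.79.

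Klf5, which promotes proliferation of basal epithelium, was the Klf member called lower in untreated shRNA cells over both times. In untreated shRNA cells it read 7.66, 7.56 and 7.74 at 24 h and 8.36, 8.33 and 8.47 at 2 h. In untreated vector cells it read 8.04, 8.28 and 7.85 at 24 h and 9.16, 9.28 and 9.27 at 2 h. The shRNA arrays were below the vector arrays at each time. Klf5 was 1.54-fold lower in shRNA cells over both times (log2 difference -0.63, SE 0.15, limma adjusted p = 7.33e-04), and the difference at 24 h alone, -0.40, did not pass the test (adjusted p = 0.137). It fell with time in both lines, by 0.74 in shRNA cells (adjusted p = 0.0121) and by 1.18 in vector cells (adjusted p = 6.39e-05), and these changes were not shown to differ (difference 0.44, 95% interval -0.17 to 1.06). Klf5 has 2 probe sets, and its sizes varied with the processing. Over the alternatives the line difference ran between -0.68 and -0.45. The change with time ran between -0.78 and -0.48 in shRNA cells and between -1.29 and -0.73 in vector cells, all called. Between 2 and 6 h in irradiated shRNA cells the mean of the 2 probe sets gave -0.26 (limma adjusted p = 0.0695), against -0.41 for the brighter one.

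Klf10 (TIEG1), a TGF-beta-inducible factor, read 8.43, 8.16 and 8.50 in untreated shRNA cells and 8.16, 8.29 and 7.97 in untreated vector cells at 24 h. At 2 h it read 8.61, 8.63 and 8.67 in shRNA cells and 8.33, 8.13 and 9.30 in vector cells. Replicate 3 of the vector cells was above the shRNA arrays and replicates 1 and 2 were below them. The line difference at 2 h was 0.05 with all arrays (adjusted p = 0.904) and 0.41 without the 3 (limma adjusted p = 0.00876). At 6 h after 10 cGy Klf10 was lower in shRNA cells (-0.49). The limma adjusted p there was 0.125 with all arrays and 5.02e-04 without the 3. After 100 cGy at 6 h the line difference was 0.002. In irradiated cells its medians were 8.30, 8.43 and 8.21 in shRNA cells at 2, 6 and 24 h, against 7.99, 8.63 and 8.09 in vector cells. Without the 3 arrays Klf10 rose by 0.83 between 2 and 6 h in vector cells (adjusted p = 2.81e-09), against 0.43 with them, which did not pass the test (adjusted p = 0.0847).

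**Figure D3:**
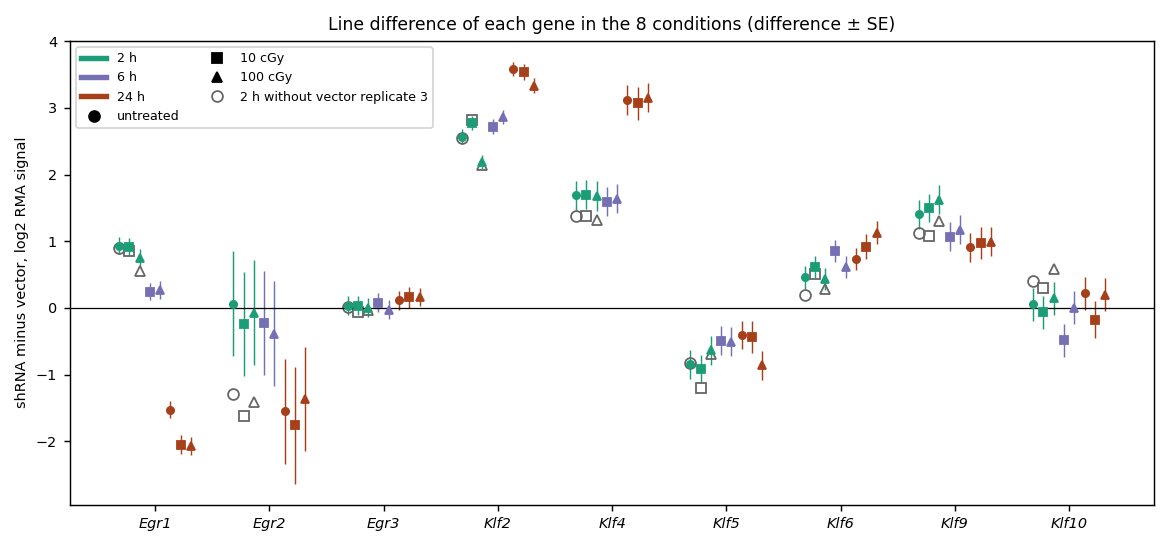
Difference in log2 RMA signal, AnxA2 shRNA minus vector, of the 9 members at each dose and time (colours for time, symbols for dose, bars for the SE from the limma fit, open symbols for 2 h without vector replicate 3). Klf2 and Klf4 are the furthest above 0, Egr1 lies above 0 at 2 h and below it at 24 h, and the open symbols of Egr2 lie below 0.

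Taken as a list, 6 of the 9 members passed the test between the lines in untreated cells averaged over both times: Klf2, Klf4, Klf6 and Klf9 were higher in shRNA cells, and Egr1 and Klf5 were lower. That comparison called 48.2% of all tested genes. The median size of the difference, whatever its sign, was 0.63 among the members and 0.20 over all tested genes. At 2 h 6 members passed (5 higher, Egr1 now among them, and 1 lower), where 33.8% of all genes did. At 24 h 5 passed (4 higher, 1 lower), beside 39.3% of all genes. In irradiated cells at 6 h 6 passed (5 higher, 1 lower), beside 49.8%. Without the 3 apart arrays the counts were 8, 7, 6 and 8, where 50%, 33.4%, 43.6% and 52.8% of all genes passed, with Egr2 lower in shRNA cells in all 4. Tested in each of the 8 pairs of groups with the same dose and time, Klf2, Klf4, Klf6 and Klf9 were higher in shRNA cells in all 8, and Klf5 was lower in 4. Of all genes 33.8%, 33.4% and 40% passed at 2 h in untreated, 10 cGy and 100 cGy cells, 35.7% and 37.2% at 6 h after 10 and 100 cGy, and 39.3%, 33.7% and 38.3% at 24 h in untreated, 10 cGy and 100 cGy cells. Egr1 was higher in shRNA cells in the 3 groups at 2 h and lower in the 3 at 24 h. With the 3 arrays left out, Klf2, Klf4 and Klf9 were higher in 8 pairs and Klf6 in 6, the exceptions being untreated and 100 cGy cells at 2 h (adjusted p = 0.340 and 0.131). Klf5 was then lower in 6 pairs and Egr2 in 7, and Klf10 was higher in 2 and lower in 1, with Egr1 as before. The shares of all genes were then 33.4%, 34.9% and 38.6% at 2 h in untreated, 10 cGy and 100 cGy cells, 40% and 40.5% at 6 h after 10 and 100 cGy, and 43.6%, 37.6% and 42% at 24 h in untreated, 10 cGy and 100 cGy cells.

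Over time in untreated cells, 4 members passed in shRNA cells (Egr1, Egr2 and Klf5 lower at 24 h, Klf2 higher), where 19.2% of all genes did, and 6 in vector cells (Egr1, Egr2, Klf2, Klf4, Klf5 and Klf6, all lower at 24 h), where 25.9% did. The change differed between the lines for Egr1, Klf2 and Klf4, beside 5.69% of all genes. Without the 3 arrays Klf9 also passed in each line, lower at 24 h, giving 5 in shRNA cells (23.9% of all genes) and 7 in vector cells (27%), and the difference again passed for Egr1, Klf2 and Klf4 (6.58%). Egr1 fell further in shRNA cells, whereas Klf2 rose there and fell in vector cells, and Klf4 fell in vector cells without a called change in shRNA cells. Between 2 and 6 h in irradiated cells 5 members fell in shRNA cells (21.5% of all genes passed in either direction) and 6 in vector cells (16.7%), and only the change of Egr1 differed between the lines (2.85% of all genes). Klf5 was the least stable of the 5 in shRNA cells (-0.41, adjusted p = 0.0496): it lost its call in 14 of 20 alternatives, with adjusted p between 0.00916 and 0.205. Without the 3 arrays 5 members passed in shRNA cells (25.6%) and 7 in vector cells (19.7%), and Egr2 and Klf10 also passed the difference, where 5.33% of genes did. Between 6 and 24 h 4 members passed in shRNA cells (39.2% of all genes), with Egr1 and Egr2 lower and Klf2 and Klf4 higher, and 2 in vector cells, Klf4 and Klf10, both lower (39%). Those changes differed between the lines for Egr1, Klf2 and Klf4 (10.1% of all genes). With the 3 left out, 6 passed in shRNA cells (42.8%) and 5 in vector cells (42.3%), and the difference passed for Egr2 as well (14%). The counts in vector cells depend on single arrays: the count of 6 over time in untreated vector cells was 3 without replicate 1 or without replicate 2 at 2 h, and the count of 6 between 2 and 6 h was 1 without replicate 1 or 2 of the 100 cGy cells at 2 h.

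**Figure D4:**
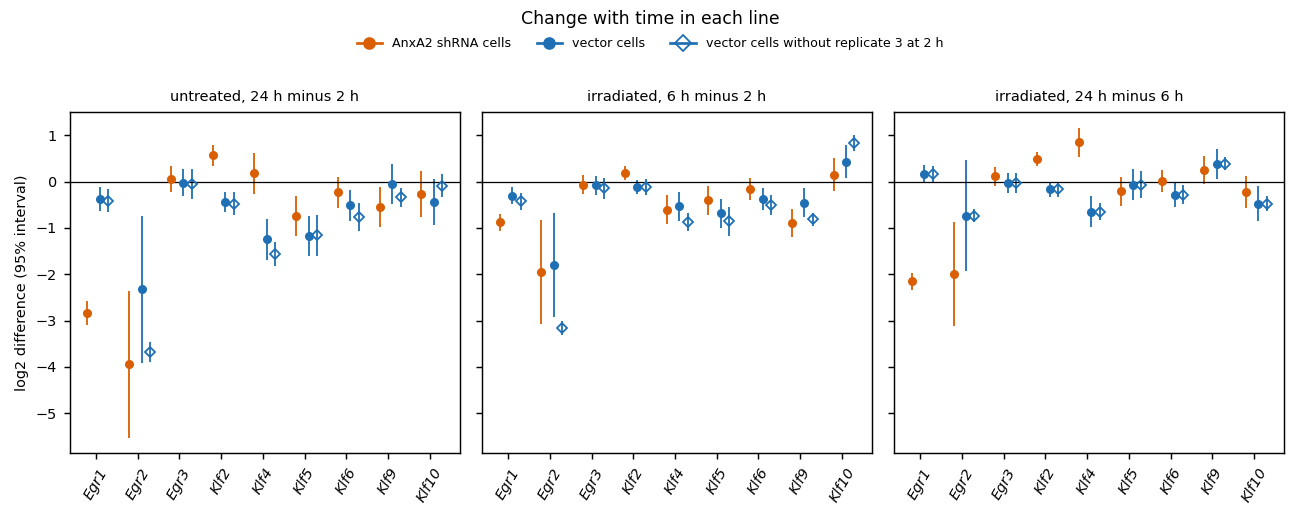
Change in log2 RMA signal of the 9 members between the times named above each panel, in AnxA2 shRNA and vector cells, with 95% intervals from the limma fit and diamonds for vector cells in the fit without replicate 3 at 2 h. Egr1 falls by 2.85 in untreated shRNA cells and by 0.38 in untreated vector cells, and Klf2 goes up in untreated shRNA cells and down in vector cells.

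No member passed the test for a response to radiation. That held in each of the 8 comparisons of irradiated with untreated cells (10 and 100 cGy, 2 and 24 h, each line), in limma. Of all genes 0.0115% and 0.0231% passed in shRNA cells at 2 h after 10 and 100 cGy, and 0% and 0.161% at 24 h. In vector cells the shares were 0% and 0.0461% at 2 h and 0.0115% and 0.0922% at 24 h. The members' 72 differences ran between -0.48 and 0.32 on the log2 scale, and 4 had an unadjusted p under 0.05. These were Egr1 in shRNA cells at 24 h, at -0.43 after 10 cGy and -0.35 after 100 cGy, and Klf2 after 100 cGy in vector cells, at 0.32 at 24 h and 0.24 at 2 h. At 24 h Egr1 read 6.94, 6.61 and 6.78 in untreated shRNA cells, 6.43, 6.22 and 6.39 after 10 cGy, and 6.45, 6.52 and 6.31 after 100 cGy. Both irradiated groups lay below the untreated arrays, and the smallest adjusted p over the comparisons of Egr1 was 0.632. Klf2 in vector cells at 24 h read 5.65, 5.60 and 5.76 after 100 cGy, against 5.41, 5.48 and 5.16 in untreated cells (adjusted p = 0.871).

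Without the 3 apart arrays 10 of the 72 had an unadjusted p under 0.05, and the smallest adjusted p was 0.102, of Klf10, with still none passing. How many of all genes had an unadjusted p under 0.05 in that fit is not given here. The shares of all genes that passed the adjusted test were then 0.104% and 0.0346% in shRNA cells at 2 h after 10 and 100 cGy, 0% and 0.311% at 24 h, 0.115% and 0.161% in vector cells at 2 h, and 0.0115% and 0.231% at 24 h. The remaining values here are from the fit of all arrays unless stated. Klf4 was higher and Klf9 lower in irradiated cells in all 8 comparisons, with differences of 0.03 to 0.21 and of -0.26 to -0.04. However, 10 and 100 cGy share their untreated arrays, and none passed. Egr2 had 95% intervals that reached between -1.91 and 1.77 with all arrays and between -0.51 and 0.45 without the 3. Those of the other members lay within -0.98 and 0.78 with all arrays. The response to either dose was not shown to differ between the lines for any member at 2 or 24 h, with 3 of the 36 such values at an unadjusted p under 0.05 (0.0115% of all genes passed at 2 h after either dose and at 24 h after 10 cGy, 0.0807% at 24 h after 100 cGy). At 6 h no member passed between 100 and 10 cGy (0% of all genes passed in shRNA cells and 0.0922% in vector cells). There 0 members had an unadjusted p under 0.05 in either line, beside 299 of all genes in shRNA cells and 376 in vector cells.

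**Figure D5:**
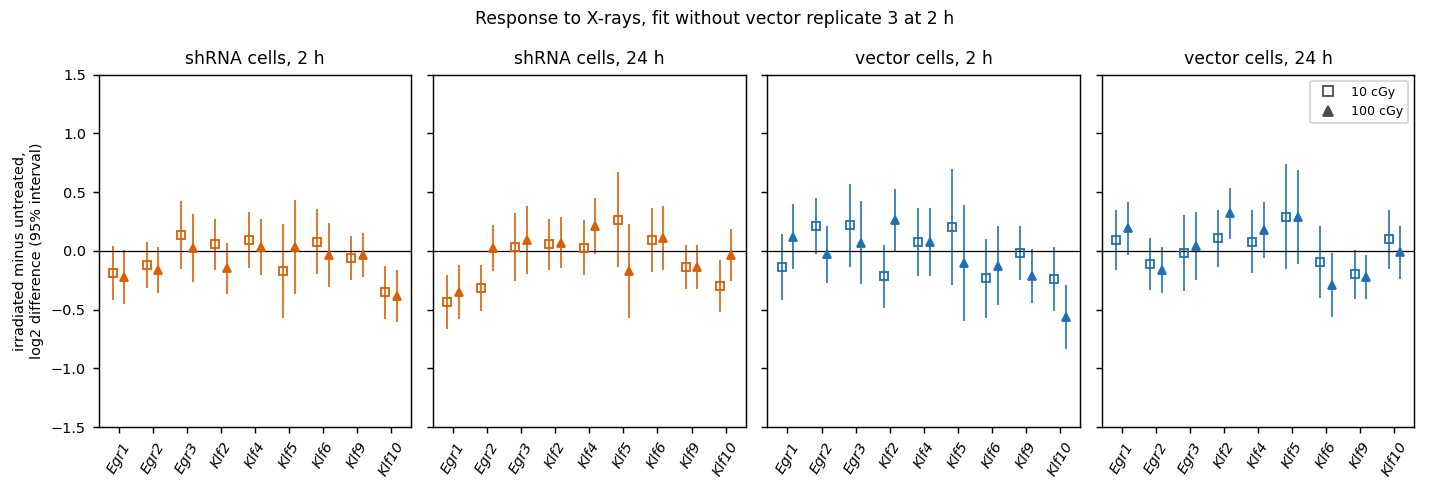
Difference in log2 RMA signal between irradiated and untreated cells of the 9 members at 2 and 24 h in AnxA2 shRNA and vector cells, in the fit without vector replicate 3 at 2 h, with 95% intervals (squares for 10 cGy, triangles for 100 cGy). All 72 values lie between -0.56 and 0.32, and 71 of them lie within 0.5 of 0.

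Genes around the members in their pathways were read from lists, here over untreated cells of both times, shRNA against vector, where 48.2% of all genes passed. Of 3 Egr partners Nab2, a corepressor of Egr proteins, was lower (-0.35), and Egr4 and Nab1 did not pass. Of 6 genes of SRF and its cofactors Srf itself was higher (0.68, adjusted p = 2.56e-06), and the ternary complex factors Elk1, Elk3 and Elk4 and the cofactors Mrtfa and Mrtfb did not pass. Of 7 genes of the ERK5 and MEF2 module 5 were higher and none lower: Mef2c at 2.46 (adjusted p = 1.11e-19), Mef2d at 0.55, Map2k5 at 0.31, Mef2b at 0.27 and Mapk7, which encodes ERK5, at 0.15. Mef2c averaged 7.14 on shRNA arrays and 4.51 on vector arrays. Without the 3 apart arrays 4 of these 7 passed, where 50% of all genes did. Endothelial markers, the cell type in which this module is best known upstream of Klf2, were under the low-signal limit for 4 of 5 genes in both lines, as given above.

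Of 5 other Klf genes tested (Klf12, Klf15 and Klf17 were under the low-signal limit) Klf16 (0.56) and Klf3 (0.30) were higher in shRNA cells, and of 4 related Sp factors Sp4 was (0.23). Of 19 other immediate early genes 9 were higher and 1 lower. Ccn2, which encodes a matricellular protein, was higher by 2.86, the MAP kinase phosphatase Dusp1 by 2.19 and the small GTPase Rhob by 2.05. The AP-1 subunit Jund was higher by 1.52, Ccn1 by 1.26, Atf3 by 1.08, Ier2 by 0.60, Zfp36 by 0.35 and Jun by 0.29. Ier3 was lower (-0.65). Without the 3 arrays 10 were higher and 3 lower, where 50% of all genes passed in either direction. Over time 11 of the 19 were lower at 24 h in both shRNA and vector cells, with 3 higher in shRNA cells and 1 in vector cells, where 19.2% and 25.9% of all genes passed in either direction. The median change was -0.65 in shRNA cells and -0.61 in vector cells, beside 0.02 over all genes in each line. Among 6 genes known to follow Klf2 or Klf4 in other tissues, Cdkn1a, the p21 cell cycle inhibitor, was higher (0.44), and S1pr1, a Klf2 target in T cells, was lower (-0.81), while Thbd, Nos3, Krt4 and Tfpi did not pass. Of 7 glucocorticoid-related genes 3 were higher, with the receptor Nr3c1 at 0.83, Per1 at 0.56 and Tsc22d3 (GILZ) at 0.42, and the kinase Sgk1 was lower (-1.32). Of 10 TGF-beta genes 6 were higher. They were the inhibitors Skil (0.69), Smad7 (0.53) and Ski (0.49), together with Smad4 (0.28), Smad2 (0.22) and the receptor Tgfbr2 (0.20). The receptor Tgfbr1 (-1.14) and the ligand Tgfb1 (-0.62) were the 2 that were lower. Without the 3 arrays 5 were higher and 4 lower, beside 50% of all genes in either direction.

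How alike the members ran was described by Pearson's r over the 8 group means of a line, taken within each line since the lines form separate clusters. The groups of a line share the line, and those of a time share their time, so r mainly follows the course over time. Egr1 and Egr2 ran together in shRNA cells (r = 0.98) and less closely in vector cells (r = 0.71), and Egr2 and Klf5 did in both (0.89 and 0.96). Egr1 and Klf2 ran in opposite directions in shRNA cells (r = -0.98) and in the same direction in vector cells (r = 0.62), and Egr2 and Klf4 had -0.28 in shRNA cells and 0.95 in vector cells. Over all tested genes, those most like a member, by the lower of the 2 within-line r values, were Uap1 and Ell2 for Egr2 (0.99 each), Gadd45b for Klf5 (0.95), Bach1 for Klf9 (0.95), Slco1a5 and Prkab1 for Egr1 (0.93 each), Rras2 for Klf4 (0.93) and Plekhf1 for Klf6 (0.91). Klf2 was most like Fam102a (0.87), Klf10 most like Prpf39 (0.82) and Egr3 most like Rhox5 (0.80). These values are the highest of a search over all tested genes on 8 means per line, so high r can come from the search alone. The group means of Egr3 spanned only 0.15 in shRNA cells and 0.18 in vector cells, beside median SDs within groups of 0.19 and 0.16.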

How the data were processed

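Affymetrix arrays with 22690 mouse probe sets (model not stated in the labels) were used. By the labels' protocols, 3 µg of total RNA was labelled by the one-cycle kit. Values are log2 RMA signals as deposited by the authors, per the submitters' processing notes (RMA version not given). RMA sets all arrays to 1 distribution, so a change shared by all genes cannot be seen. 64 control probe sets, 691 with several symbols and 1555 with none were left out. Symbols come from the platform annotation; names, positions and promoters come from RefSeq (GRCm38.p6).

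The members and gene lists were chosen with earlier results of these data known. 1 limma fit (limma 3.58.1, R 4.3.3) of 16 group means on 47 arrays covered the 8675 genes left after the 30% of genes with the lowest mean were removed (limit 4.35). Tests were two-sided, Benjamini-Hochberg adjusted over all of them in each of 27 comparisons, and called at 0.05. Named genes are all members, Anxa2, and some of the cell type markers. Of each pathway list they are the genes called between untreated lines with all arrays, and some of the others. For likeness they are the 1 or 2 genes with the highest lower r.

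Alternatives were array centring, other filters, the mean of probe sets, trended robust variances, fits of only the compared groups, a replicate block, leaving out single arrays and leaving out the 3 apart arrays. The fit was tested on simulated data. The number of arrays limits the precision.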

Additional observations from a re-analysis of the deposited data

Results flagged for a closer look

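Changes over time that differed between AnxA2 shRNA and vector cells by a test of the difference itself are listed here (limma, adjusted over all genes). In untreated cells between 2 and 24 h the shRNA minus vector difference was -2.47 for Egr1 (adjusted p = 1.55e-12), 1.01 for Klf2 (adjusted p = 1.47e-05) and 1.43 for Klf4 (adjusted p = 0.003). In irradiated cells between 2 and 6 h it was -0.58 for Egr1 (adjusted p = 0.00766). Between 6 and 24 h it was -2.32 for Egr1 (adjusted p = 9.27e-16), 0.64 for Klf2 (adjusted p = 7.03e-05) and 1.495 for Klf4 (adjusted p = 9.09e-06). The 6 h arrays enter both steps in irradiated cells, so these are not independent. The test for a single outlying sample needs larger groups than the 2 or 3 arrays here and was not run. The vector arrays of replicate 3 at 2 h, which stood apart, are described above with their values.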

How the results depend on the processing

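Of 57 called pairs of a member and a comparison, 987 of 1057 alternative values kept call and direction and 70 lost the call, while 44 of 3200 values of uncalled pairs passed. Leaving out the 3 vector 2 h arrays of replicate 3 turned the sign of Egr2 between untreated lines at 2 h, giving -1.29, and in the shRNA minus vector difference between 2 and 6 h, giving 1.21. It moved the members called to 3 in that last difference (5.33% of all genes passed), against 1 (2.85%). In vector cells between 6 and 24 h it moved them to 5 (42.3%), against 2 (39%). That count was 4 with each array centred on its median and 5 in a fit of the compared groups alone. That last fit called 3 over time in untreated vector cells and 2 between 2 and 6 h in irradiated vector cells. In the fit of all 16 groups these were 6 each (25.9% and 16.7% of all genes). The compared-groups fit called 5 in the shRNA minus vector difference between 6 and 24 h, against 3 (10.1%). Without 1 array at a time the counts were 3 to 6 over time in untreated vector cells, 1 to 7 in vector cells between 2 and 6 h, and 1 to 2 between 6 and 24 h. The count was 3 without replicate 1 of the 10 cGy vector cells at 2 h or of the 100 cGy cells at 6 h and 2 without replicate 2 of the 10 cGy cells at 2 h (between 2 and 6 h). It was 1 without replicate 1 or 2 of the 100 cGy vector cells at 6 h, replicate 1 or 3 at 24 h, or, at 10 cGy, replicate 2 at 6 h or replicate 1 at 24 h (between 6 and 24 h). Counts in the other comparisons stayed within 1.5 times. Apart from the omission of the 3 arrays, shares of all genes under the alternatives are not given here. These counts therefore do not show whether the members moved more than other genes. The cause was not tested.

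Same-numbered arrays of a line and time correlated in their deviations with a median r of 0.23 (-0.29 to 0.72 over 40 pairs), against -0.103 for other numbers. The deviations of a group sum to 0, so these medians depend on each other. Since not every pair correlated and the labels give the numbers no meaning, the numbers were not taken to pair samples. With the replicate block no count of members moved by 1.5 times, and all counts for radiation remained 0. The nearest to a call was Klf10 in vector cells at 2 h after 100 cGy, lower than the untreated array of the same number on all 3 arrays (-0.48, adjusted p = 0.0699 with the block and 0.455 without it). The dose comparisons had 0 calls under every alternative run.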
